A study of Mus musculus with 232 samples.

Results

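The cells described here are the 821 cells that the authors placed in a cluster they named Astro-juv, of 24185 cells of the mouse dentate gyrus profiled by droplet single-cell RNA sequencing. They were chosen by that cluster name alone, at all ages. The cluster held 199 cells at postnatal day 18 (P18), 150 at P19, 386 at P23, 9 at P120 and 77 at P132, and 0 at E16.5 (an embryonic age), P0 and P5. P18 and P23 were pools of male CD-1 mice and P19 was a pool of female C57Bl/6 mice. P120 pooled 2 males and 1 female, and P132 3 males and 1 female, of the hGFAP-GFP line. Cells of that line make green fluorescent protein (GFP) where the promoter of human GFAP is active, and GFP-positive cells were sorted. The perinatal ages were CD-1 mice of unknown sex. The tissue was microdissected and dissociated with papain at every age. Animals were pooled within an age, so the age is the replicate. Line, sex of the pool and the sort differ between the juvenile ages, P18 to P23, and the adult ages, P120 and P132, and cannot be told apart from stage.

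Astrocytes are the glia that surround synapses and blood vessels. They clear glutamate and convert it to glutamine, buffer extracellular potassium, move water through channels at their end-feet, share small molecules through connexin gap junctions, and supply lipids and lactate to neurons. In the dentate gyrus they are related to the radial glia-like stem cells, which also make GFAP, the intermediate filament protein of astroglia.

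Unique molecular identifiers (UMIs), which count RNA molecules, totalled 398876 in the Astro-juv cells of P18, 368091 at P19, 1427439 at P23, 21075 at P120 and 145417 at P132. Levels are counts per 1000000 UMIs (CPM) of the summed cells of 1 age and cluster. A count of 0 allows a level of up to 7.52, 8.15, 2.10, 142 and 20.6 CPM at P18, P19, P23, P120 and P132, so P120, with 9 cells, is shown but entered the stage test of Astro-juv only as an alternative. The median Astro-juv cell held 1887, 2337, 3434, 2200 and 1876 UMIs at these ages. The median cell of Astro-adult, the other mature astrocyte cluster, held 1687, 1792, 2872, 1648 and 1728. In summed cells, fewer expressing cells and less RNA per cell cannot be told apart. Of the 821 cells, 29 carried a barcode that also occurs in another library of the series, and 0 shared one with another Astro-juv cell.

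The cells carried the astrocyte markers. With each cell thinned to 1000 UMIs, Slc1a2, the main astrocytic glutamate transporter, was found in 100% of Astro-juv cells at each of P18, P19, P23 and P132. Granule neurons, which should lack it, showed it in 23.6% to 25.8% of cells at a median depth of 1988 to 5680.5 UMIs. Gja1, the gap junction protein connexin 43, was found in 96.5%, 96.7%, 96.9% and 97.4% of Astro-juv cells and 1.10% to 1.91% of granule cells. Aqp4, the end-foot water channel, was found in 87.9%, 86%, 76.9% and 94.8%, against 0.614% to 1.01%. Aldoc, a glycolytic enzyme enriched in astrocytes, was found in 97.5%, 98.7%, 98.4% and 88.3%, against 2.32% to 3.89%. All 4 markers were thus far above the background of free RNA at each of these ages.

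Markers of other cells were low. Mbp of oligodendrocytes was found in 16.6%, 8%, 16.6% and 9.09% of Astro-juv cells and in 9.60% to 19.98% of granule cells. The summed level of 10 oligodendrocyte markers ran from 454 to 902 CPM over the 5 ages, that of 10 microglia and macrophage markers from 73.4 to 94.9, and that of 7 endothelial markers from 0 to 27.2. The cell division genes Mki67, Top2a and Cdk1 had 0 UMIs at every age. Of 6 markers of radial glia-like cells, Tfap2c had 2, 1, 0, 0 and 0 UMIs at P18, P19, P23, P120 and P132, Cdk6 had 0, 0, 3, 1 and 0, Riiad1 5, 5, 9, 1 and 0, Rhcg 0, 3, 7, 0 and 1 and Wnt8b 0, 1, 3, 0 and 0. Thrsp, the last of these 6 markers, had 123, 140, 476, 3 and 20 UMIs and made up most of their summed level of 326, 408, 349, 237 and 144 CPM. It stood at 433, 659.9, 217, 523 and 326 CPM in Astro-adult. The label of an astrocyte held, while the cluster was not restricted to juvenile ages.

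Astro-juv made up most astrocytes at P18 and P23, was matched by Astro-adult at P19, and was a minority at both adult ages. Its share of the cells of the 3 astrocyte clusters (Immature-Astro, Astro-juv and Astro-adult) was 0% at P0 (124 cells, exact 95% upper bound 2.93%) and 0% at P5 (514 cells, bound 0.715%). At P18 it was 91.7% (exact interval 87.2% to 95.0%), at P19 51.2% (45.3% to 57.1%) and at P23 93.5% (90.6% to 95.6%). At P120 it was 2.70% (1.24% to 5.07%) and at P132 9.51% (7.57% to 11.7%). Juvenile and adult ages did not overlap. The pair of P132 libraries gave 9.21% and 9.75% of the Astro-juv and Astro-adult cells. The mean share was 78.8% ± 23.9 (SD, n = 3 ages) at juvenile and 6.10% ± 4.81 (SD, n = 2 ages) at adult ages. A two-sided exact permutation test over ages gave p = 0.2, the smallest p that 3 ages against 2 allow. Of all cells, Astro-juv made up 7.34, 7.21, 14.3, 0.660 and 2.01 percent at P18, P19, P23, P120 and P132. Intervals cover counting error only, and the adult shares are of GFP-sorted cells. The adult pools also differed in make-up, with granule cells 50 of 1363 cells at P120 and 2250 of 3829 at P132.

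**Figure D1:**
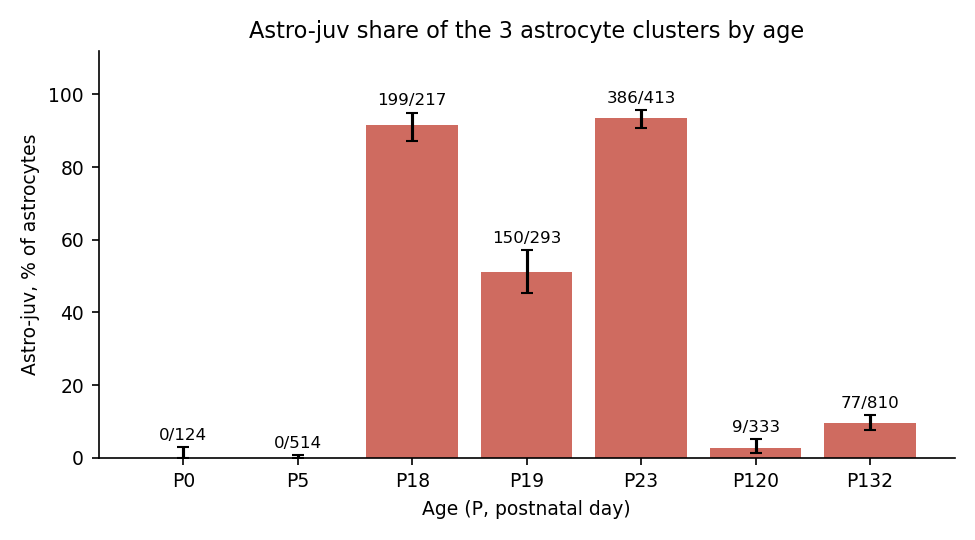
Share of Astro-juv among the cells of the 3 astrocyte clusters (vertical axis, percent) at each age (horizontal axis); error bars are exact 95% intervals over cells. The share is 91.7% and 93.5% at P18 and P23, 51.2% at P19, and 2.70% and 9.51% at P120 and P132.

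The most abundant genes were those of known astrocyte tasks. Leaving out ribosomal protein and mitochondrial genes, the 20 highest by mean CPM included Slc1a2 and Slc1a3 for glutamate uptake, Glul for glutamine synthesis, Apoe and Clu of lipoprotein particles, the metallothioneins Mt1, Mt2 and Mt3, and the secreted proteins Sparcl1, Cst3 and Ptn. They also included Cpe, Scd2, Fth1, Gpm6b, Malat1 and the markers Gja1, Aldoc and Aqp4. CPM are not divided by length, so levels are compared within a gene.

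Slc1a2 stood at 21403 CPM at P18, 19957 at P19, 12998 at P23, 6548 at P120 and 15699.7 at P132. It was lowest in the 9 cells of P120, and P132 lay within the juvenile range. Gja1 stood at 3379.5, 3703, 3754, 4176 and 3734 CPM at P18, P19, P23, P120 and P132, a range narrower than that of Slc1a2. Glul, which makes glutamine from glutamate, stood at 5744, 6189, 4346, 3464 and 4999 CPM. Kcnj10, the channel that takes up potassium, stood at 456, 402, 467, 142 and 481 CPM, and P132 was the highest age by a small margin. Apoe, the main lipid carrier of the brain, stood at 14252, 12451, 20704, 18078 and 8837 CPM, with P132 below every other age.

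Metallothioneins, small proteins that bind zinc and copper, stood at different levels from age to age. Mt1 stood at 7559 CPM at P18, 18724 at P19, 13349.8 at P23, 34638 at P120 and 23464 at P132 in Astro-juv. In Astro-adult it stood at 6997, 17089, 13929.9, 30793 and 29852 CPM, so the 5 ages stood in the same order in both clusters. Granule cells held 292, 971, 323, 939 and 1257 CPM of Mt1, in another order but also lowest at P18 and P23. Mt2 stood at 1579, 4401, 4465, 11198 and 7530.1 CPM in Astro-juv at P18, P19, P23, P120 and P132, with both adult ages above every juvenile age. Mt3, the form enriched in brain, stood at 7729, 9498, 8517, 17461 and 11924 CPM, in the same order of stages. The adult minus juvenile difference did not pass the test for Mt1 (log2 0.76 ± 0.38 (SE), adjusted p = 0.502) or Mt2 (1.05 ± 0.39 (SE), adjusted p = 0.321), by edgeR's quasi-likelihood test described further on. P18 and P23, which share strain and sex, also differed.

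The promoters of Mt1 and Mt2 are shown because the genes lie next to each other and both were lowest at P18 and highest at P120. Capitals mark matches to the core of the metal response element, TGCACNC or TGCGCNC, on either strand, to which the zinc-sensing factor MTF1 binds. Each runs from 250 bases before to 30 after the start of the RefSeq gene (GRCm38.p6, plus strand), at chr8:94178839-94179118 for Mt1 and chr8:94172368-94172647 for Mt2. Mt1 holds 3 matches and Mt2 holds 4, of which those on the other strand appear as the reverse complement and none overlap. Of 32851 RefSeq promoters of this length 24.1% hold a match, 1.73% hold 3 or more and 0.405% hold 4 or more.
Mt1: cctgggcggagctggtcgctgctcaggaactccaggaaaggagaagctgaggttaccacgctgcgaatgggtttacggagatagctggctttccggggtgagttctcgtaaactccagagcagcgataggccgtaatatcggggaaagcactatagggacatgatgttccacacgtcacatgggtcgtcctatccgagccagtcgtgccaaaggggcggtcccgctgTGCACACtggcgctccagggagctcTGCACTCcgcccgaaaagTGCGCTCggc
Mt2: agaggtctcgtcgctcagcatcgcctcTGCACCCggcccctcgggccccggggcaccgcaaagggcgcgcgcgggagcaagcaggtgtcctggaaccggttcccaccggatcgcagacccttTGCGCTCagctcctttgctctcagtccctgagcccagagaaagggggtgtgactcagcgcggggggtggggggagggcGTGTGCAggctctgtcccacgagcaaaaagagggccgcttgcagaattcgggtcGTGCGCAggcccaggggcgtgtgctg

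The levels of 3092 genes, as log2(CPM + 10), correlated with a Pearson r of 0.915 to 0.945 between pairs of juvenile ages. Between a juvenile age and P132, r was 0.844 to 0.865, and between P120 and any other age it was 0.570 to 0.617. These values are across genes, and P120 is the shallowest sum.

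Set against Astro-adult cells of the same age, Astro-juv cells held more of Gfap, Aqp4, Serpinf1 and Tnc. At P19 and P132 they also held less of the amino acid exchanger Slc7a10. This comparison is a description with no test, since the authors drew the clusters from these cells and genes. P19 and P132 had 20 or more cells of both clusters. Of 6280 genes with a mean of 20 CPM, 32 were 2-fold or more higher in Astro-juv at both ages (0.51%) and 24 were 2-fold or more lower (0.382%), on log2(CPM + 10). With P18 and P23 added, where Astro-adult has 17 and 15 cells (a choice made after seeing the data), 12 of 6238 genes were 2-fold higher at all 4 ages and 0 were 2-fold lower. The 12 were Serpinf1, Myoc, Tnc, Prss23, Rdh5, Angpt1, Tfcp2l1, Ccdc3, Dner, Gfap, Aqp4 and Pcdh19. Myoc and Prss23 at P18 and P23, and Ccdc3 at P23, rest on a 0 in Astro-adult and the added 10. Their Astro-juv levels there lie under the 92.9 (P18) and 65.2 CPM (P23) that such a 0 allows. A difference at all 4 ages was thus not shown for Myoc, Prss23 and Ccdc3. For Rdh5, Angpt1, Tfcp2l1, Dner and Pcdh19 this was not examined.

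Gfap stood at 1467 CPM at P18, 1701 at P19, 970.3 at P23, 4650.1 at P120 and 3817 at P132 in Astro-juv. In Astro-adult it stood at 495, 397, 435, 681 and 1255 CPM at the same ages. Astro-juv was higher at 5 of 5 ages, though its P23 level lay below the P132 level of Astro-adult. The pair of P132 libraries held 3299 and 4226 CPM in Astro-juv. Aqp4 stood at 2813, 2798, 2471, 3559 and 5048 CPM in Astro-juv and at 1146, 1334, 913, 856 and 1747 CPM in Astro-adult at P18, P19, P23, P120 and P132, higher in Astro-juv at each age.

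Myoc, which encodes the secreted glycoprotein myocilin, stood at 40.1, 133, 41.3, 1518 and 227 CPM in Astro-juv and at 0, 0, 0, 0 and 12.9 CPM in Astro-adult at the same ages. It was found in 2.01%, 3.33%, 2.59% and 11.7% of thinned Astro-juv cells at P18, P19, P23 and P132 and in 0% to 0.0889% of granule cells, so a minority of the cells showed it. A 0 in the 17 Astro-adult cells of P18 and the 15 of P23 allows up to 92.9 and 65.2 CPM, above the Astro-juv levels of Myoc at those ages, so a difference was not detectable there. Serpinf1, which encodes the secreted factor PEDF, stood at 128, 201, 163, 617 and 151 CPM in Astro-juv and 0, 32.8, 0, 15.3 and 16.7 in Astro-adult. Tnc, the matrix protein tenascin-C, stood at 150.4, 160.3, 123, 142 and 206 CPM in Astro-juv and 31.0, 72.9, 0, 18.7 and 24.4 in Astro-adult. Ncan, the matrix proteoglycan neurocan, stood at 1108, 1182, 867, 1851 and 1822 CPM in Astro-juv and 279, 594, 217, 467 and 471 in Astro-adult. Serpinf1, Tnc and Ncan stood higher in Astro-juv at each age, also where a 0 in Astro-adult is set at what it allows. For Tnc, the P18 level of Astro-adult comes from 17 cells and lies under the 92.9 CPM that a 0 allows. Its P120 level in Astro-juv equals the 142 CPM that a 0 allows there. The difference in Tnc is less certain at those ages.

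Of the other genes named, Slc38a1, a glutamine transporter, stood at 80.2, 128, 49.7, 474 and 282 CPM in Astro-juv and 61.9, 36.5, 0, 49.4 and 70.8 in Astro-adult at P18, P19, P23, P120 and P132. Grin3a, a glutamate receptor subunit, stood at 143, 174, 82.7, 94.9 and 248 CPM in Astro-juv and 61.9, 94.8, 21.7, 37.5 and 36.5 in Astro-adult. Both stood higher in Astro-juv at each age. The levels of Slc38a1 at P18 and P23, however, lie below the 92.9 and 65.2 CPM that a 0 allows in Astro-adult. That of Grin3a at P120 lies below the 142 CPM that a 0 allows in Astro-juv. No difference can be read at these ages for these genes. The Astro-adult levels of Grin3a at P18 and P23 come from 17 and 15 cells. Vim, the filament protein vimentin, stood at 100.5 CPM in Astro-juv and 25.5 in Astro-adult at P19, and at 82.5 and 12.9 at P132. Nrp2, a semaphorin co-receptor, stood at 103 and 21.9 CPM at P19 and at 165 and 25.9 at P132. At P18 Vim, Nrp2 and Fxyd6 stood at 20.1, 67.7 and 40.1 CPM in Astro-juv and 31.0, 92.9 and 61.9 in the 17 Astro-adult cells. These levels do not exceed the 92.9 CPM that a 0 allows in Astro-adult there. The differences were thus not shown at each age, and no reverse can be read at P18. Fxyd6, Prss23, Ccdc3 and 6330403K07Rik completed the 12 highest, with mean log2 differences of 1.71, 1.71, 1.72 and 2.10 over P19 and P132.

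**Figure D2:**
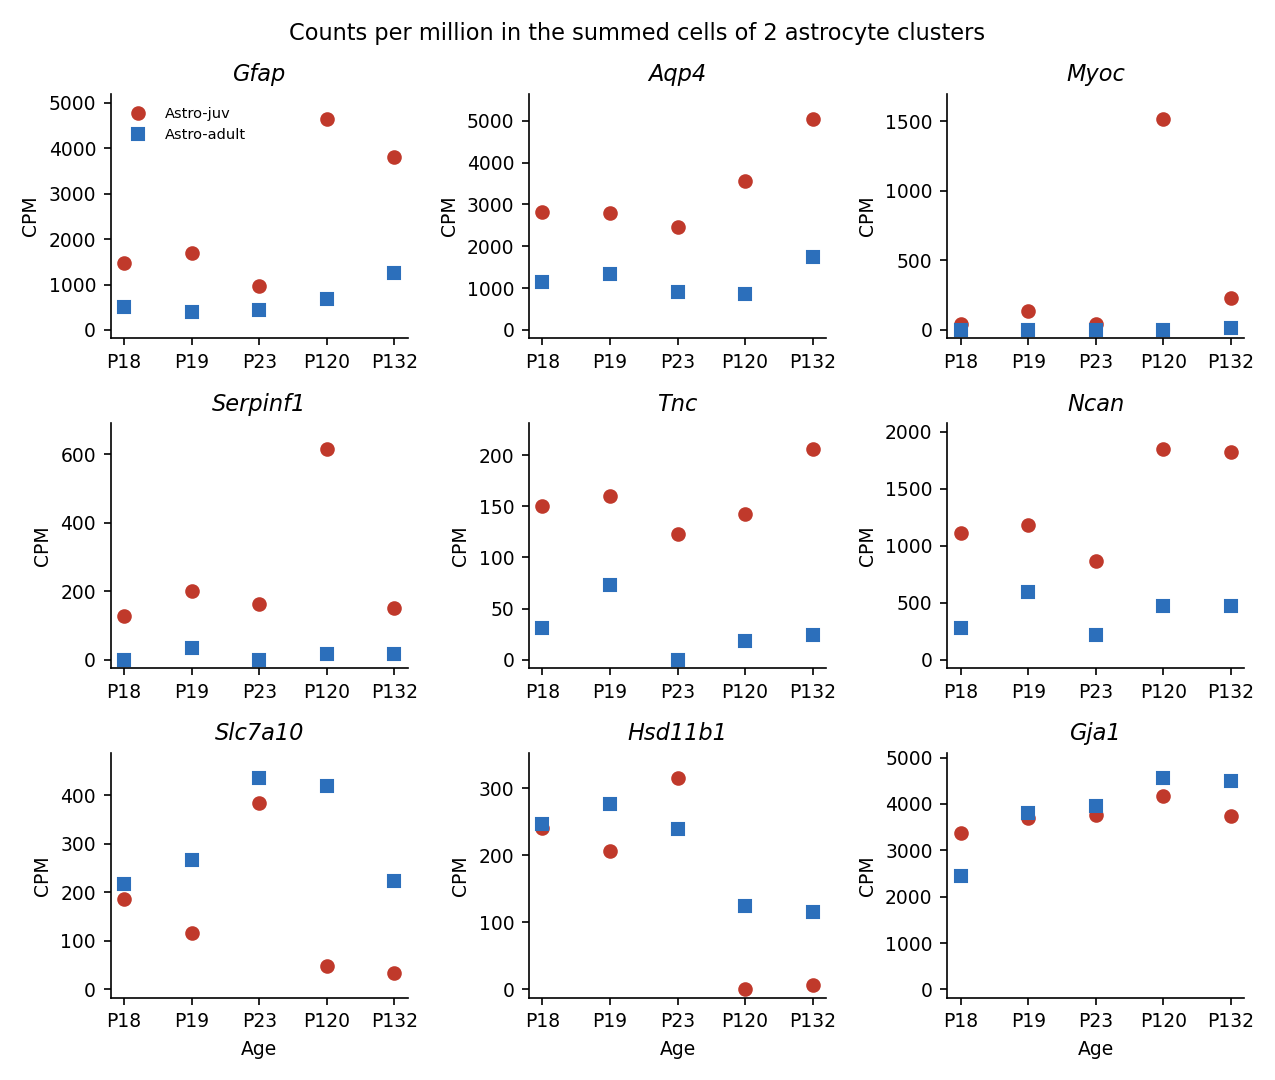
Level in CPM (vertical axes) of 9 genes at each age (horizontal axes) in summed Astro-juv cells (red circles) and Astro-adult cells (blue squares), 1 point for each age and cluster. Gfap, Aqp4, Serpinf1, Tnc and Ncan lie higher in Astro-juv at all 5 ages, as Myoc does at P19, P120 and P132. Slc7a10 lies lower, by little at P18 and P23, while Gja1 runs from 3379.5 to 4176 CPM in Astro-juv.

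The genes lower in Astro-juv were led by an amino acid exchanger. Slc7a10, which exchanges D-serine and other small amino acids, stood at 186 CPM at P18, 117 at P19, 384 at P23, 47.4 at P120 and 34.4 at P132 in Astro-juv. In Astro-adult it stood at 217, 266, 435, 419 and 222 CPM at the same ages. It was lower in Astro-juv at 5 of 5 ages, and 2-fold or more lower at P19 and P132. At P18 and P23 the log2 differences were only -0.21 and -0.17, against 17 and 15 Astro-adult cells. The P120 level of Astro-juv rests on 1 UMI. In thinned cells the share with Slc7a10 was lower in Astro-juv at P18, P19, P120 and P132. At P23 it was higher, at 30.3% of Astro-juv and 13.3% of Astro-adult cells. Notch2, a Notch receptor, stood at 113, 95.1, 111, 47.4 and 61.9 CPM in Astro-juv and 186, 386, 304, 386 and 134 in Astro-adult, lower at each age. Gpld1, a phospholipase that releases anchored proteins from membranes, stood at 35.1, 13.6, 62.3, 47.4 and 27.5 CPM in Astro-juv. In Astro-adult Gpld1 stood at 124, 54.7, 108.7, 112.4 and 98.2 CPM. It stood lower in Astro-juv at each age, but its P120 level there rests on 1 UMI, where a 0 allows 142 CPM. No direction can be read for Gpld1 at P120, and P18 and P23 hold 17 and 15 Astro-adult cells. Vangl2, of planar cell polarity, stood at 10.9 and 83.9 CPM in the 2 clusters at P19 and at 20.6 and 50.2 at P132. At P18, P23 and P120 it stood at 22.6, 25.9 and 94.9 CPM in Astro-juv and 0, 21.7 and 54.5 in Astro-adult. A 0 allows 92.9 and 65.2 CPM in Astro-adult at P18 and P23, and 142 in Astro-juv at P120. No direction can be read at these ages. Hsd11b1, Ccdc146, Wtap, Bmp2k, Cnr1, Cyp4f15, Zscan26 and Golgb1 completed the 12 lowest, with mean log2 differences of -1.65, -1.44, -1.38, -1.36, -1.32, -1.21, -1.20 and -1.20. The Astro-adult cells of P18 held 619 CPM of Sox11, a gene of immature neurons, and those of P19 held 175, against 35.1 and 35.3 in Astro-juv; its part in the differences was not tested.

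**Figure D3:**
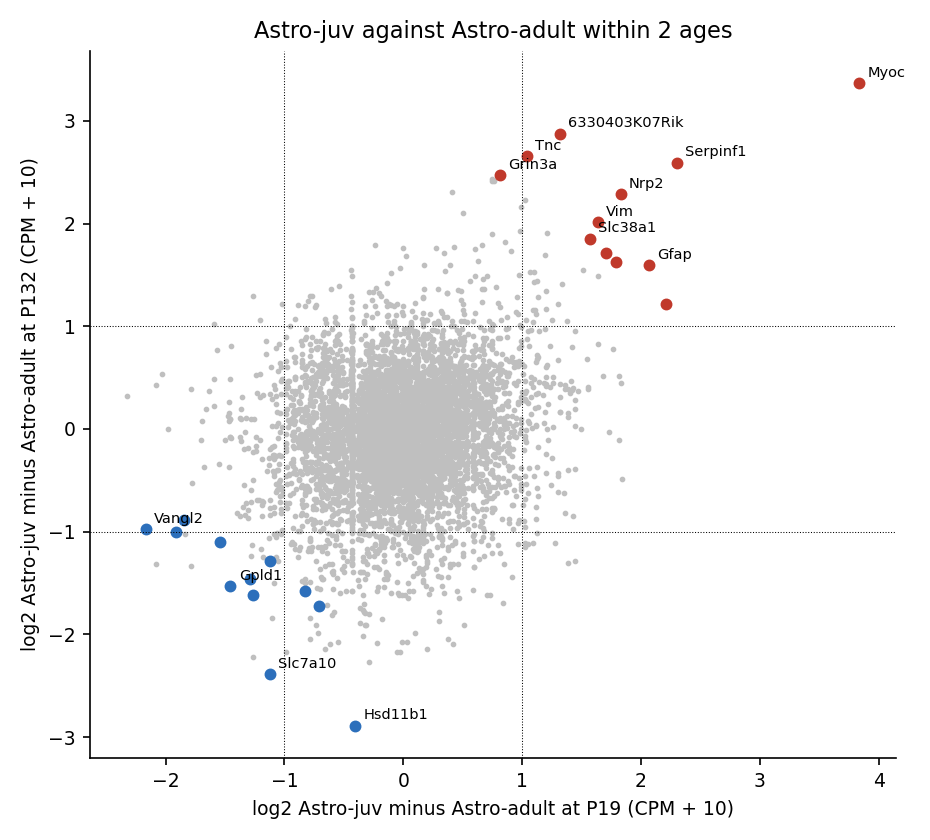
Difference between Astro-juv and Astro-adult as log2 of CPM + 10, at P19 (horizontal axis) and P132 (vertical axis), 1 point a gene for 6280 genes; coloured points are the named genes. Myoc lies at 3.84 and 3.37, Slc7a10 at -1.12 and -2.39, and Hsd11b1 at -0.41 and -2.89.

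By the median gene at P19 and P132, the core astrocyte functions differed little between the 2 clusters. Over P19 and P132 the median log2 difference, Astro-juv minus Astro-adult, was 0.01 for 20 genes of astrocyte identity, with Aqp4 the 1 gene that was 2-fold higher at both ages. It was 0.00 for 13 genes of glutamate, GABA and glutamine handling, with Slc38a1 2-fold higher. For 17 genes of potassium, water and ion balance it was 0.15, for 4 gap junction genes -0.05 and for 16 genes of glycogen, glycolysis and lactate -0.01. The median over all 6280 genes was -0.03. Summed, the 20 identity genes held 77322, 79105 and 83330 CPM in Astro-juv at P18, P19 and P23. In Astro-adult they held 57773, 68176 and 65695, and at P132 the sums were 70047 and 72314. At the juvenile ages the sums for glutamate handling, ion balance and glycogen were also higher in Astro-juv, and that for gap junctions at P18 alone. Of 14 radial glia and immature glia genes 3 were 2-fold higher (Gfap, Vim and Tnc), with a median of -0.10. Of 9 reactive astrocyte genes 2 were 2-fold higher (Gfap and Vim), with a median of 1.01. Of 18 synapse-active secreted and matrix genes 1, Tnc, was 2-fold higher, with a median of -0.15. Among 15 receptor genes Cnr1 was 2-fold lower (median -0.24). Cnr1 stood at 60.2, 27.2, 39.9, 47.4 and 0 CPM in Astro-juv and 31.0, 98.4, 21.7, 13.6 and 11.4 in Astro-adult at P18, P19, P23, P120 and P132. It was lower at P19 and, with a 0 that allows 20.6 CPM, not detectably different at P132. At P18 and P23 both levels lay under the 92.9 and 65.2 CPM that a 0 allows in Astro-adult. At P120 the Astro-juv level lay under the 142 CPM that a 0 allows there. No direction can be read at these ages. Among 10 Notch pathway genes Notch2 was 2-fold lower (median -0.29). Members with a mean under 20 CPM are not counted.

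Against the radial glia-like cluster (RGL) at P19, P23 and P132, 243 of 6518 genes were 2-fold or more higher in Astro-juv at each age (3.73%) and 217 were lower (3.33%), again with no test. Aqp4 stood at 2798, 2471 and 5048 CPM in Astro-juv at P19, P23 and P132 and at 49.6, 95.4 and 167 in RGL. Gfap was also lower in RGL, at 323, 509 and 334 CPM. Dner, a transmembrane ligand of Notch, stood at 285, 214 and 598 CPM in Astro-juv, and Grin2c, a glutamate receptor subunit, at 331, 394 and 248, with 0 of either in RGL. Igfbp2, Ednrb and Serpinf1 completed the 6 highest. Tfap2c, a transcription factor, stood at 273, 95.4 and 167 CPM in RGL and 2.72, 0 and 0 in Astro-juv, and Stmn1, a tubulin-binding protein of immature cells, at 546, 339 and 286 and 35.3, 37.1 and 20.6. Riiad1, Mycn and Cdk6 were also among the 6 lowest.

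Immature-Astro cells came mostly from P0 and P5, where Astro-juv had none, so age and cluster cannot be told apart and levels are given side by side. Fabp7, a fatty acid binding protein of radial glia, stood at 30621 CPM in Immature-Astro at P0 and 15110.3 at P5, and at 1404, 766 and 2128 in Astro-juv at P18, P19 and P23. Slc1a2 stood at 669 and 2537 CPM at P0 and P5, Aqp4 at 256 and 1175, and Gja1 at 166 and 871, all below their Astro-juv levels. Gfap stood at 368 and 1533 CPM, the latter within the juvenile range of Astro-juv.

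Astro-juv cells differed among themselves in Gfap. With cells thinned to 1000 UMIs, Gfap was found in 54.8%, 54%, 43.3%, 100% and 87.0% of Astro-juv cells at P18, P19, P23, P120 and P132. With all UMIs of each cell these shares were 74.4%, 73.3%, 75.9%, 100% and 96.1%. In granule cells thinned alike the share was 0.606% to 1.87% at P18, P19, P23 and P132. Cells with 3 or more Gfap UMIs made up 17.6%, 16%, 8.55%, 55.6% and 59.7% of Astro-juv cells at the 5 ages, and 4.20%, 7.41% and 11.6% of Astro-adult cells at P19, P120 and P132. The variance of the Gfap count over its mean was 2.87, 6.06, 2.34, 2 and 2.996, where a Poisson count would give 1. Both adult ages lay above every juvenile age in the share with 3 or more, and since adult cells were sorted through the human GFAP promoter, stage and sort cannot be told apart there.

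**Figure D4:**
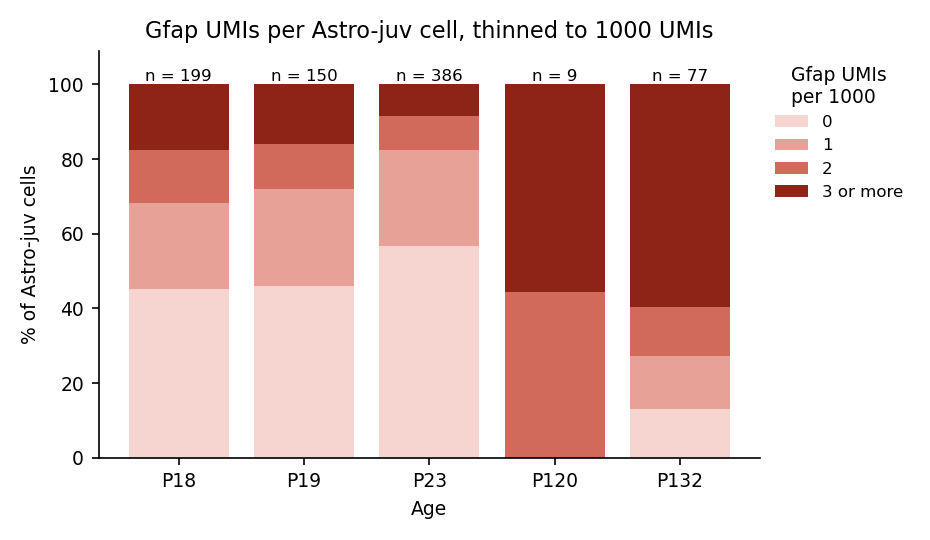
Percent of Astro-juv cells (vertical axis) with 0, 1, 2 or 3 and more Gfap UMIs, each cell thinned to 1000 UMIs, at each age (horizontal axis). Cells with 3 or more make up 8.55% to 17.6% at the juvenile ages, 55.6% at P120 and 59.7% at P132.

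The promoter of Gfap is shown because this gene divided the cells and its human counterpart drove the reporter used for the sort. It is RefSeq sequence from 250 bases before to 30 after the gene's start (GRCm38.p6, chr11:102897171-102897450, minus strand). Capitals mark the match to TTCNNNGAA, the core to which STAT factors bind, which reads alike on both strands. Of 32851 promoters of this length 7.83% hold a match.
Gfap: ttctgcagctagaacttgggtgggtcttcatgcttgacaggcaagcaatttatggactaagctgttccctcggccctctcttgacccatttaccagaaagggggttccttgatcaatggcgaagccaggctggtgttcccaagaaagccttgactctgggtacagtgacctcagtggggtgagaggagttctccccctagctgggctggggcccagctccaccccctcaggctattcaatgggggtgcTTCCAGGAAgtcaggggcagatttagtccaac

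Cells with 3 or more Gfap UMIs (Gfap-rich) were set against cells with 0 (Gfap-poor) at P18, P19 and P23, a split made after seeing the data and given with no test. The numbers were 35 and 90 cells at P18, 24 and 69 at P19, and 33 and 219 at P23. Of 1449 other genes, 8 were 2-fold or more higher in Gfap-rich cells at each of the 3 ages (0.552%) and 5 were lower (0.345%), on log2(CPM + 50). Aqp4 was higher by 1.38 log2 at P18, 1.14 at P19 and 1.54 at P23. Slc38a1 was higher by a mean of 2.59 log2, on 14, 22 and 7 UMIs in Gfap-rich and 2, 3 and 6 in Gfap-poor cells. The others were Igfbp5 (1.97), a binding protein of insulin-like growth factors, Marcks (1.92), Serpinf1 (1.78), Il6st (1.65), the shared receptor subunit gp130 of the interleukin 6 family, Scd1 (1.65), a fatty acid desaturase, and Gprc5b (1.17).

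The genes lower in Gfap-rich cells were led by Mfge8 (-2.10 log2), a secreted bridge between dying cells and phagocytes, and Hsd11b1 (-1.99), which regenerates active glucocorticoid. Hsd11b1 had 0, 2 and 2 UMIs in Gfap-rich and 29, 16 and 86 in Gfap-poor cells at P18, P19 and P23. Tmco1 (-1.44), Luzp2 (-1.32) and Tmem258 (-1.22) completed the 5. At P132, with 46 Gfap-rich and 10 Gfap-poor cells, Marcks (4.02 log2), Slc38a1 (3.62) and Serpinf1 (1.45) were again 2-fold or more higher. Aqp4 (0.70), Scd1 (0.35), Gprc5b (0.20), Il6st (0.11) and Igfbp5 (0.11) were under 2-fold, as were Tmco1 (-0.87), Mfge8 (-0.77) and Luzp2 (-0.03). Tmem258 stood at 0.90 on 2 UMIs against 0, and Hsd11b1 at 0.00 on 0 against 0, too few to give a direction. Aqp4 and Serpinf1 also stood among the 11 genes besides Gfap that exceeded Astro-adult at 4 ages, which is 2 of 8 genes of the split. Of those 11, Myoc, Prss23 and Ccdc3 were under the minimum of 100 CPM for the split, so they could not be in both. Whether Rdh5, Angpt1, Tfcp2l1, Dner and Pcdh19 reached that minimum was not checked, so more of the 11 may have been kept from overlapping. Over all genes, 8 of 1449 were higher in the split (0.552%) and 12 of 6238, with Gfap, at 4 ages. The overlap was not tested. The median difference was -0.26 log2 over 20 astrocyte identity genes and -0.06 over all genes.

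Adult and juvenile Astro-juv cells were then compared across all genes with edgeR's quasi-likelihood test, adjusted by the Benjamini-Hochberg method over 6708 genes. P132 stood alone for the adult stage and is assumed to vary like P18, P19 and P23, and p-values measure the spread between ages only. At an adjusted p under 0.05, 7 genes passed (0.104%), 5 higher and 2 lower at P132, and 674 genes had an unadjusted p under 0.05 (277 higher and 397 lower). The median log2 difference over all genes was -0.07. DESeq2 called 14 genes, 4 of them among the 7, and gave no adjusted p for Celf4, Gm8730 and Them4. Without P18, P19 or P23 the test called 26, 52 and 58 genes, each time with all 7 among them. With the 9 cells of P120 in place of P132, it called 18 genes, of which 0 were among the 7.

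Hsd11b1, which regenerates active glucocorticoid inside cells, fell the farthest. It stood at 241 CPM at P18, 206 at P19, 315 at P23, 0 at P120 and 6.88 at P132 in Astro-juv, on 96, 76, 450, 0 and 1 UMIs. The ratio of juvenile ages to P132 was 41.2, with a 95% counting interval of 7.37 to 1631. The fitted log2 fold change was -5.25 ± 0.80 (SE) with an adjusted p of 0.00201. Thinned cells with a UMI made up 20.1%, 21.3%, 25.6% and 0% at P18, P19, P23 and P132 (0 of 77 cells, exact 95% upper bound 4.68%), against 0.101% to 0.271% of granule cells. With all UMIs of each cell the share at P132 was 1.30%. In Astro-adult the level was 248, 277, 239, 124 and 115 CPM at P18, P19, P23, P120 and P132, also lower at the adult ages, with a log2 difference of -1.24 that did not pass (edgeR adjusted p = 0.471). The difference between the clusters in this change was -3.99 ± 0.99 (SE) log2, adjusted p = 0.121 in edgeR, so it was not shown to differ.

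Ctnnbip1, an inhibitor of the Wnt mediator beta-catenin, stood at 293, 261, 227, 47.4 and 48.1 CPM at P18, P19, P23, P120 and P132 and fell by 2.49 on the log2 scale (SE 0.53, edgeR adjusted p = 0.0484). Both adult ages were below every juvenile age. The call was lost, with the fold about the same, when libraries were scaled by the RLE method (log2 -2.46, adjusted p = 0.0692), when the listed genes were left out of library sizes (-2.47, 0.0504) and among cells with a Gfap UMI alone (-2.33, 0.0913), the last added after seeing the data.

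Of the 5 genes higher at P132, Them4, a mitochondrial acyl-CoA thioesterase, stood at 12.5, 76.1, 21.7, 285 and 234 CPM in Astro-juv and 31.0, 80.2, 0, 289 and 232 in Astro-adult. It rose by 2.76 ± 0.54 (SE) log2 in Astro-juv (edgeR adjusted p = 0.0181), and granule cells held 23.6, 26.3, 32.4, 26.7 and 36.2 CPM. Ddn, which encodes the dendritic protein dendrin, stood at 153, 51.6, 131.7, 142 and 550.1 CPM in Astro-juv and 454, 656, 468, 656 and 742 in granule cells, and rose by 2.19 ± 0.39 (SE) (adjusted p = 0.00979). In Astro-adult Ddn stood at 31.0, 40.1, 456, 39.2 and 368 CPM, with a log2 difference of 2.41 in the stage test there. That test set P120 and P132 against P19 alone. P120 did not lie above P19, and P23, left out of the test, lay above P132. Celf4, a neuronal RNA-binding protein, stood at 72.7, 43.5, 65.9, 47.4 and 268 CPM and 591, 575, 501, 731 and 667 in granule cells, and rose by 2.04 ± 0.39 (SE) (adjusted p = 0.0154), and among cells with a Gfap UMI alone the value was 1.51 (adjusted p = 0.163). Ddn and Celf4 were thus lower in Astro-juv than in granule neurons at every age, and P120 did not lie above the juvenile range for either. With P120 in place of P132, Celf4 turned to -1.17 log2 and Ddn to -0.49. The summed level of 10 granule cell markers in Astro-juv was 732, 571, 605, 617 and 977 CPM, of which Camk2a, a synaptic kinase whose mRNA is carried into dendrites, held 501, 206, 317, 474 and 818. Prox1, the defining granule cell factor, had 15, 14, 47, 0 and 4 UMIs, Syt1 7, 11, 40, 0 and 0 and C1ql2 1, 3, 2, 0 and 0. The part of neuronal RNA in the rise of Ddn and Celf4 was not tested.

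Gm10076 stood at 361, 369, 194, 1329 and 1217 CPM in Astro-juv and 578, 600.1, 325, 1691 and 1436 in granule cells, and rose by 1.93 ± 0.35 (SE) (edgeR adjusted p = 0.0106). Gm8730 stood at 57.7, 81.5, 27.3, 332 and 330.1 CPM and 78.0, 98.3, 54.7, 598 and 578 in granule cells, and rose by 2.65 ± 0.43 (SE) (adjusted p = 0.00324). RefSeq lists both as pseudogenes, whose reads can be shared with near-identical copies, so their values are uncertain. Both adult ages exceeded every juvenile age in Astro-juv and in granule cells alike. Gm10076 differed between the P132 libraries, at 700.3 and 1626 CPM.

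**Figure D5:**
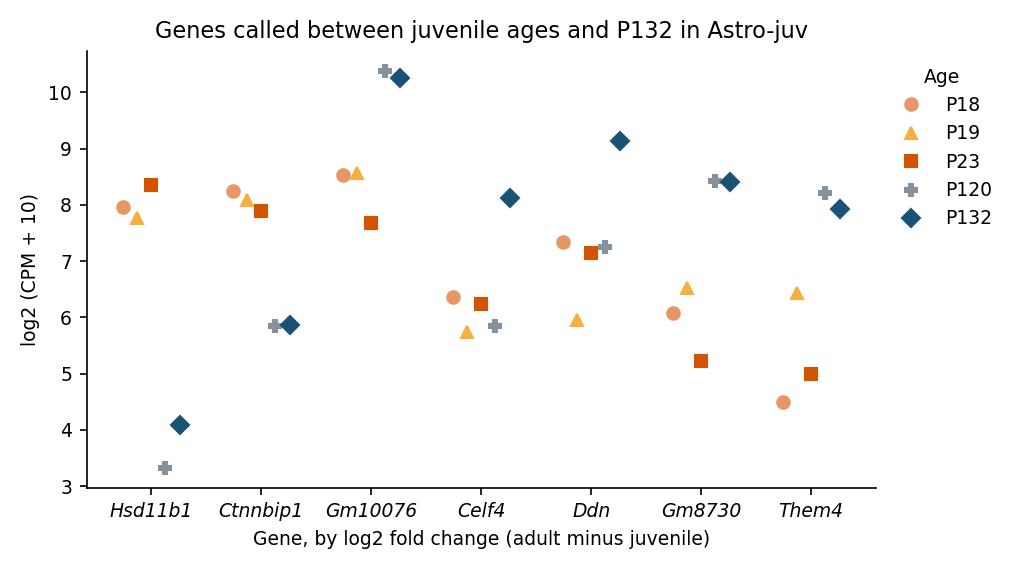
Level as log2 of CPM + 10 (vertical axis) of the 7 genes that passed the test (horizontal axis) in summed Astro-juv cells, 1 marker for each age. P132 lies below the juvenile ages for Hsd11b1 and Ctnnbip1 and above them for the other 5, while P120 (9 cells) lies within the juvenile range or under it for Celf4 and Ddn.

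Of 20 genes of reactive astrocytes, 9 could be tested, 0 were called, and 6 were higher and 0 lower at an unadjusted p under 0.05, with a median of 1.51 log2. Over all 6708 genes 4.13% were higher and 5.92% lower at that threshold, which also applies to the lists that follow. The sum of the 20 genes was 1669.7, 2135, 1259.6, 6501 and 4738 CPM at P18, P19, P23, P120 and P132, most of it Gfap, whose human promoter was used for the sort. Gfap differed by 1.40 ± 0.34 (SE) log2 (edgeR adjusted p = 0.116). C4b, a complement component, stood at 37.6, 46.2, 93.9, 617 and 227 CPM in Astro-juv and 31.0, 25.5, 43.5, 57.9 and 58.6 in Astro-adult, and differed by 1.74 ± 0.44 (SE) (adjusted p = 0.138). Serpina3n, a secreted protease inhibitor, stood at 20.1, 54.3, 27.3, 332 and 131 CPM in Astro-juv and 0, 29.2, 0, 209 and 125 in Astro-adult, with 1.95 ± 0.52 (SE) log2 (adjusted p = 0.158). Aspg, an asparaginase, stood at 12.5, 32.6, 18.9, 237 and 117 CPM (2.43 ± 0.56 (SE) log2, adjusted p = 0.105). Cd44, a hyaluronan receptor, and S100a10, a calcium-binding family member, differed by 1.51 ± 0.54 (SE) and 2.19 ± 0.98 (SE) log2. The other 3 tested, Osmr, Stat3 and Vim, differed by 1.27 ± 0.88 (SE), 0.56 ± 0.46 (SE) and 0.90 ± 0.71 (SE).

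Lists of lipid genes had medians below 0 at P132, again with 0 genes called. Of 18 cholesterol synthesis genes 0 were higher and 5 lower at an unadjusted p under 0.05, with a median of -0.61 log2. Hmgcs1, an early enzyme of the pathway, stood at 842, 587, 746, 569 and 811 CPM and differed by 0.09 ± 0.36 (SE). Of 18 lipoprotein and lipid handling genes 0 were higher and 3 lower, with a median of -0.37. Fabp5, a fatty acid binding protein, stood at 1030.4, 834, 1249, 332 and 447 CPM (-1.29 ± 0.39 (SE) log2, edgeR adjusted p = 0.224). Apoe differed by -0.91 ± 0.39 (SE) log2.

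Receptors and secreted factors were mixed. Of 15 receptor and calcium signalling genes 0 were higher and 4 lower at an unadjusted p under 0.05 (median -0.55). Grm3, a metabotropic glutamate receptor, stood at 143, 119.5, 141, 94.9 and 41.3 CPM, with -1.78 ± 0.55 (SE) log2 (edgeR adjusted p = 0.224). Of 16 synapse-active secreted and matrix genes 2 were higher and 2 lower. Sparc, which opposes the synapse-promoting action of Sparcl1, stood at 150.4, 117, 130.3, 0 and 27.5 CPM (-2.33 ± 0.61 (SE) log2, adjusted p = 0.154), while Sparcl1 stood at 5169.5, 4148, 4348, 3037 and 4367 CPM (-0.14 ± 0.35 (SE)). Of 10 Notch pathway genes 0 were higher and 2 lower (median -0.44).

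In the lists of core functions 0 genes passed the adjusted test. At an unadjusted p under 0.05, 1 of 20 astrocyte identity genes was higher and 1 lower (median -0.27), 1 of 14 genes of glutamate, GABA and glutamine handling was higher (0.06), and 2 of 17 genes of potassium, water and ion balance were higher (-0.27). Aqp4 differed by 0.83 ± 0.32 (SE) log2 (edgeR adjusted p = 0.353). Kcnj16, a potassium channel subunit, stood at 20.1, 27.2, 47.6, 94.9 and 138 CPM in Astro-juv and 31.0, 29.2, 21.7, 139.6 and 163 in Astro-adult, and differed by 1.89 ± 0.50 (SE) (adjusted p = 0.158). Among 4 gap junction genes 0 were past the unadjusted threshold, with a median of -0.21, and among 8 serine and glycine metabolism genes 0, with a median of -0.05. Of 15 genes of glycogen, glycolysis and lactate 1 was higher and 2 lower (0.08), of 19 metallothionein and antioxidant genes 3 were higher and 3 lower (0.34), and of 22 astroglial transcription factors 2 were higher and 0 lower (0.16). Of 14 radial glia and immature glia genes 1 was higher and 1 lower (-0.21).

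The share of ribosomal protein genes also differed between the stages. Of 91 ribosomal protein genes tested 31 were higher and 1 lower at P132 at an unadjusted p under 0.05, with a median of 0.57 log2, and ribosomal protein genes took 4.22, 3.72, 4.46, 6.77 and 7.31 percent of UMIs at P18, P19, P23, P120 and P132. Mitochondrial transcripts took 17.3, 17.3, 13.6, 7.88 and 15.2 percent, with P132 within the juvenile range. Of 6 dissociation genes tested 0 were higher and 1, Hspa8, was lower (-1.12 ± 0.39 (SE) log2). Their part in the stage differences was not tested.

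In Astro-adult cells P120 and P132 were compared with P19, the 1 juvenile age with 20 or more cells and the 1 pool of C57Bl/6 females, which is assumed to vary like the adult ages. That test called 41 of 8346 genes (0.491%), 24 higher and 17 lower at adult ages. The test of whether the stage difference itself differed between the clusters used P18, P19, P23 and P132 with the age as a block, and needed the 15 and 17 Astro-adult cells of P23 and P18. It called 1 of 7034 genes (0.0142%) in edgeR, with 265 at an unadjusted p under 0.05. That gene, Tmsb10, which encodes an actin-sequestering thymosin, stood at 198, 40.8, 104, 332 and 131 CPM in Astro-juv at P18, P19, P23, P120 and P132 and at 1827, 244, 283, 104 and 103 in Astro-adult. The difference of stage effects was 2.71 ± 0.54 (SE) log2 (adjusted p = 0.00421). Without P18, the value was 2.29 ± 0.55 (SE) and no longer passed (adjusted p = 0.209), and 0 genes were called. The adjusted p ran from 0.000572 to 0.856 over the alternatives, and the value from 2.29 to 3.07. The 17 Astro-adult cells of P18 also held 619 CPM of Sox11 and 402 of Stmn1, genes of immature neurons, whose part was not tested.

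Among the juvenile ages, P19 differed in strain and sex, and it stood apart in few genes of the cluster. Of 2973 genes, 14 were 2-fold or more higher at P19 than at both P18 and P23 (0.471%) and 36 were lower (1.21%), with no test. Xist, the RNA of the inactive X chromosome, stood at 0, 1236 and 0.701 CPM at P18, P19 and P23, and the Y-linked Ddx3y at 118, 0 and 134, as the labelled sexes of the pools would have it. Gm10260, Gm10709, Gm8797 and Gm13305, the other 4 lowest, were low at P19 in Astro-adult too. Rpl29, a ribosomal protein gene, stood at 15.0, 201 and 30.1 CPM and was high at P19 in both clusters. Myoc stood at 40.1, 133 and 41.3 CPM, Fxyd6 at 40.1, 141 and 37.8 and Rmst, a long noncoding RNA, at 55.2, 160.3 and 46.9. Astro-adult cells held 0 CPM of Myoc at the 3 ages, so a difference between ages could not be read there. They held 61.9, 36.5 and 21.7 CPM of Fxyd6, which was not highest at P19. Its P18 and P23 levels lie under the 92.9 and 65.2 CPM that a 0 allows. Whether the clusters differed in this was not tested.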

How the data were processed

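Droplet 3-prime libraries (10x Genomics V2, per the labels) were processed with Cell Ranger against mm10, per the submitters' processing notes, whose version is not given in the sources used here. The authors deposited UMI counts for 27933 genes in 24185 cells of 8 ages and 24 clusters, with the age, strain and cluster of each cell. How the authors filtered cells and removed doublets is not given in the sources used here, and 0 Astro-juv cells held over 3 times the median UMIs of their age. The numbered parts of 1 age and cluster in the labels were not used as replicates. Of columns with per-sample values, 0 were left unused.

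Counts were summed by age and cluster where 20 or more cells remained. Stages were compared with edgeR 4.0.16 (TMM, filterByExpr, quasi-likelihood F test, Benjamini-Hochberg) in R 4.3.3, with limma 3.58.1 and DESeq2 1.42.0 installed and DESeq2 used as an alternative. The planned test of the stage difference between clusters could not be fitted at 20 cells, since P19 and P132 alone leave no residual degrees of freedom, and was run at 10 cells. The 2 clusters share animals and libraries within an age, so age was a block. Their deviations from each gene's mean over P18, P19, P23 and P132 correlated at r = 0.257, 0.476, 0.343 and 0.496 at those ages, over 2990 genes. These deviations include the stage difference, so r does not measure the pairing within a stage alone. Cluster differences used log2(CPM + 10) and a mean of 20 CPM or more. Shares of cells used 1000 UMIs drawn from each cell. Python 3.11.15, numpy 2.4.6, pandas 2.3.3 and scipy 1.17.1 were used, and scripts were tested on simulated data.

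Named genes were, in the stage test, those with an adjusted p under 0.05, a mean of 50 CPM and stages that did not overlap, up to 12 in each direction. In the test of the difference between clusters they were up to 4 in each direction. Against Astro-adult they were the 12 largest and 12 smallest mean differences with the same sign at both ages, against RGL 6 and 6, and at P19 5 and 5. The 20 most abundant genes and members of function and marker lists could also be named. Members, lists and tests were chosen with earlier results of these data known. The Gfap split, the use of P120 and the 4-age comparison were chosen after seeing the data, as were Ncan, Sox11 and Stmn1 as examples. Some genes that the rule names are not reported here.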

Additional observations from a re-analysis of the deposited data

Results flagged for a closer look

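The change of Tmsb10 from juvenile to adult ages differed between the clusters: the log2 difference in Astro-juv minus that in Astro-adult was 2.71 ± 0.54 (SE; edgeR adjusted p = 0.00421). It was picked out by the test of that difference itself, and without P18, whose Astro-adult sum holds 17 cells, the value was 2.29 ± 0.55 (SE) with an adjusted p of 0.209.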

How the results depend on the processing

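The Astro-juv stage test called 7 genes. It called 14 with DESeq2 (4 of them shared, with no adjusted p for Celf4, Gm8730 and Them4), 35 with the P132 libraries entered separately, 34 with no filter on low counts, 30 with P120 added and 18 with P120 in place of P132, the last 2 added after seeing the data. Leaving out 1 juvenile age gave 26 to 58. With P120 in place of P132 the direction of Celf4 (-1.17) and Ddn (-0.49) reversed. The Astro-adult stage test called 41 genes, 6 with DESeq2 and 0 with no filter (479 at an unadjusted p under 0.05). The test between clusters called 1 gene, 2 with RLE scaling, and 0 with DESeq2 (40 unadjusted), with listed genes left out of library sizes (256) and with no filter (441). Leaving out 1 age gave 0 to 5. The Astro-juv stage test and the test between clusters could not be run with P132 left out and none in its place, since no adult age then remains. Without the age block, so unpaired, it called 0 (178 unadjusted). Genes 2-fold apart from Astro-adult at both ages numbered 56, and 119 with a pseudocount of 1, 8 with 50, 128 with thinned cells, 24 with a minimum of 50 CPM, 87 with no minimum and 12 with P18 and P23 added. With P132 or P19 alone the numbers were 449 and 336, since each then had to hold at 1 age. The difference in share of astrocytes was -72.7 percentage points and kept its direction under all 7 alternatives run, from -65.3 to -86.5. Among these, leaving out cells with far more UMIs than the median removed 0 Astro-juv cells and left the value unchanged. With all UMIs, Aqp4 was found in 96.4% and Gja1 in 100% of cells in place of 86.4% and 96.9%. For named genes, 77 further values kept direction and side of the threshold and 12 kept direction alone. The 77 include the values with a minimum of 10 cells and without cells of far more UMIs than the median. Both settings kept the same Astro-juv cells as the main test, so these values could not change. The 12 include the DESeq2 values of Celf4, Gm8730 and Them4. Those had no adjusted p, so a lost call cannot be read there. The causes of the changes between settings were not tested. Depth limits P120, where 1 UMI is 47.4 CPM.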
